A study of Rattus with 4 samples.

Results

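The genes described here are 10 collagen genes: Col16a1, which encodes a fibril-associated collagen chain, the fibrillar collagen genes Col1a1, Col1a2, Col3a1, Col5a1 and Col5a2, the network-forming Col4a1 and Col4a2, and the beaded-filament genes Col6a1 and Col6a2. Their peaks were taken by deposited gene name from the peak lists of RNA that came down with the splicing factor RBM25. In all, 8 of the 10 genes had a peak, with 43 of 2696 peaks in the list of the first immunoprecipitate (replicate 1, here IP-1) and 91 of 8108 in that of the second (replicate 2, IP-2). The genes were chosen by family and by the number and location of peaks in these same lists, so peak numbers, tags, strand, location and recurrence are given as descriptions, with no test.

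RBM25 IP samples came from H9C2, a rat line that was established from embryonic heart tissue and has myoblast character, after cross-linking with ultraviolet light and digestion of RNA with micrococcal nuclease. The series holds 4 samples, 2 RBM25 IPs and 2 inputs of the same line, and the inputs were not used here. The series' design text names cells with raised RBM25 for a companion RNA-seq experiment. The labels of these samples state neither overexpression nor separate cultures, nor whether native or tagged RBM25 was precipitated.

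Collagens are triple helices of chains built from glycine-led triplets, and their genes divide that repeat over many short exons. Types I, III and V form the banded fibrils of the extracellular matrix, type IV forms the network of basement membranes, and type VI forms beaded microfilaments. Type XVI belongs to the collagens with interrupted triple helices that sit on fibrils and at basement membranes. In the heart, collagens are made mainly by fibroblasts and by other mesenchymal cells. RBM25 associates with the U1 small nuclear ribonucleoprotein, which recognises 5' splice sites, and affects splice site choice.

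Each peak covers 1 or more 50-nt bins and has a number of tags, which in longer peaks is the mean over bins. The lowest peak had 19 tags in IP-1 and 20 in IP-2, so a gene without a peak may still have been bound below that level. Library depth is unknown and tags were not scaled for it, so tags are compared within a list. Peak lists do not measure expression, and binding cannot be separated from RNA abundance in them. Of 11 myoblast markers 4 had a peak, and Tnnt2 and Cdh15 had one in both lists at the same position. Of 7 fibroblast markers 3 had a peak, none of them at the same position in both lists, and none of 4 endothelial and 3 immune markers had one. Of 4 smooth muscle markers 3 had a peak, with Smtn at the same position in both lists, and of 4 epithelial markers Krt8 had one. The share of all annotated genes that had a peak is not given here, so the marker counts have no overall share beside them. Among genes with a peak in either list alone, 34.1% held a peak at the same position in both. The small marker counts are not read as a contrast of cell types.

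Col16a1 carried more peaks than any other collagen gene, 23 in IP-1 and 39 in IP-2. These made up 53.5% of the collagen peaks of IP-1 and 42.9% of those of IP-2. The 5 fibrillar genes together had 14 and 32 peaks. Among all 1914 genes of the lists, Col16a1 ranked first by number of peaks in IP-1 and 4 in IP-2. The most peaks in a fibrillar gene were 4, in Col1a1 and Col5a2, in IP-1, and 9, in Col5a1, in IP-2. Both lists thus gave Col16a1 more peaks than these 5 fibrillar genes together, by a wider margin in IP-1. Col11a1, a fibrillar gene that is not among these 5, had 8 peaks in IP-2 and none in IP-1. With Col11a1 counted too, Col16a1 no longer had more peaks than the fibrillar genes in IP-2.

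**Figure D1:**
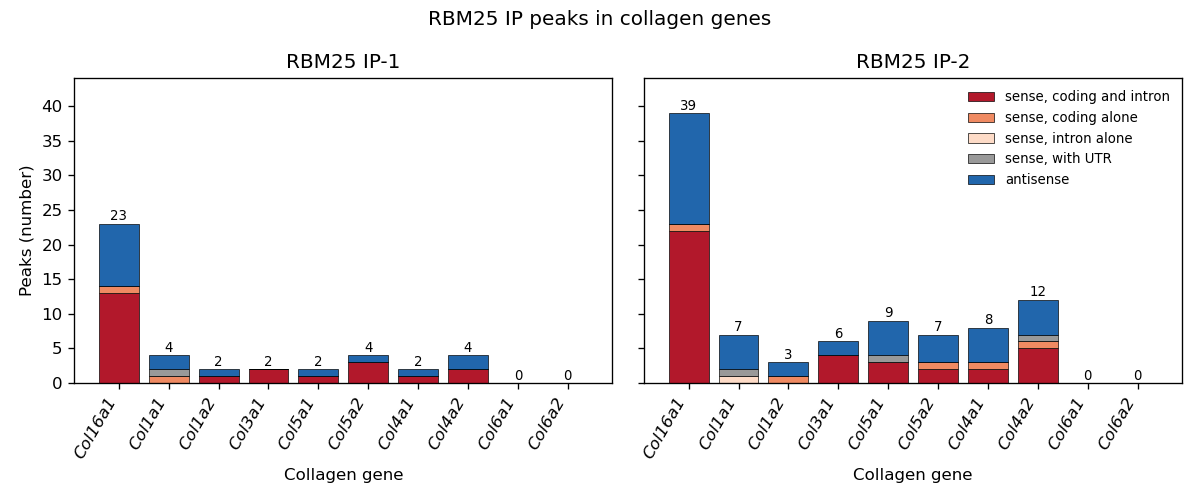
Number of peaks in each of the 10 collagen genes in RBM25 IP-1 (left) and IP-2 (right), stacked by location in the deposited annotation. Col16a1 has 23 and 39 peaks, most of its sense peaks hold both coding and intron sequence, and Col6a1 and Col6a2 have none.

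Its peaks lay on chromosome 5 of the build mRatBN7.2, between 142390650 and 142439700, with the gene on the plus strand. In IP-1, 14 were sense and 9 antisense, and in IP-2, 23 were sense and 16 antisense. Here a boundary peak is a sense peak whose annotation holds both coding sequence (CDS) and intron. Of the sense peaks, 13 of 14 in IP-1 were boundary peaks (92.9%, 95% Wilson interval 68.5 to 98.7) and 22 of 23 in IP-2 (95.7%, 79.0 to 99.2). Over all sense peaks of the lists the share was 63.9% in IP-1 and 68.1% in IP-2. Intervals cover counting error only, and peaks of 1 gene share their source. The 2 Col16a1 sense peaks that were not boundary peaks lay in coding sequence alone, at 142421750 to 142421800 with 21 tags in IP-1 and at 142439050 to 142439100 with 23 tags in IP-2. No Col16a1 sense peak lay wholly in an intron or touched a UTR in either list. No share for randomly placed bins was computed, since that needs exon coordinates, which were not used here.

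The amount of coding sequence in these boundary bins varied widely. In IP-1 the coding fraction ran over 0.04 to 0.94 with a median of 0.38, and in IP-2 over the same range with a median of 0.58. The bin held more CDS than intron in 5 of 13 peaks of IP-1 and in 12 of 22 of IP-2. Boundary peaks of all genes outside the 10 described here had medians of 0.56 and 0.60. At one end, the bin at 142401100 to 142401150 held a coding fraction of 0.04 and had 27 tags in IP-1 and 42 in IP-2. At the other, the bin at 142439650 to 142439700 held a fraction of 0.94 and had 32 and 33 tags. Peaks at similar levels thus sat in bins made almost wholly of intron and almost wholly of exon.

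By number of boundary peaks Col16a1 ranked first of 1914 genes in each list, with 35 over both. Named genes near to it by that count were the cytoskeletal linker gene Macf1 (20), the actin-binding nexilin gene Nexn (19), and Dst, another linker gene, and Lrp1, the gene of an endocytic receptor, with 18 each. Likeness here is only the count over the 2 lists; exon number and RNA abundance were not measured. As a share of sense peaks over both lists, boundary peaks were 94.6% in Col16a1, 90.5% in Nexn, 81.8% in Dst and in Lrp1, and 69.0% in Macf1. Among the other collagens Col4a2 came next, with 7 boundary peaks and rank 88, then Col3a1 with 6 and rank 111. Col5a2 had 5, Col5a1 4, Col4a1 3 and Col1a2 1, and Col1a1 had none.

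Col16a1 peaks were unevenly placed along the gene. Counted from its first peak, the stretch of 10 to 20 kb held 10 of 14 sense peaks in IP-1 and 10 of 23 in IP-2. The stretch of 20 to 30 kb held no sense peak and 1 antisense peak in each list. Beyond 30 kb, sense peaks numbered 3 in IP-1 and 10 in IP-2. The first stretch of 10 kb held 1 sense peak in IP-1 and 3 in IP-2. These all lay within 142399800 to 142400600, at the end of that stretch and next to the group at 10 to 20 kb. The one at 142400550 to 142400600 was in both lists, so the cut between these stretches is arbitrary. The group at 10 to 20 kb was therefore common to both lists. The downstream sense peaks came mostly from IP-2, the longer list. Over all genes IP-2 held 3887 sense peaks and IP-1 1200, so this split is not read as a trait of that stretch.

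**Figure D2:**
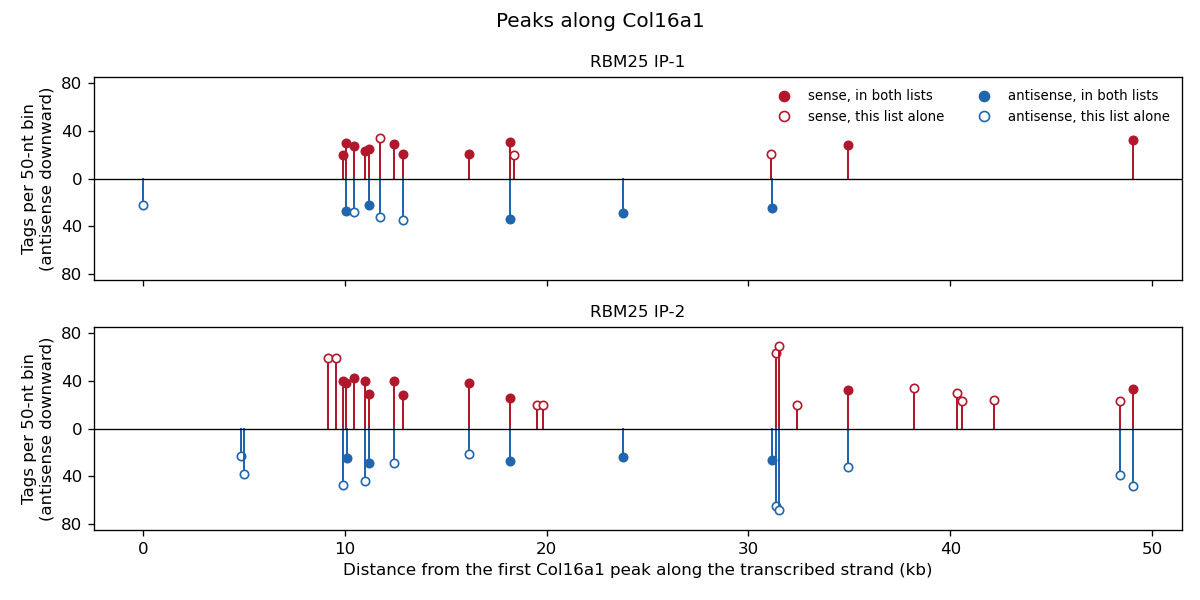
Position of each Col16a1 peak as distance in kb from the first peak, along the plus strand, with sense tags upward and antisense tags downward, for RBM25 IP-1 (top) and IP-2 (bottom). Filled circles recur in the other list and cluster at 10 to 20 kb; the tallest pairs of IP-2, just beyond 30 kb, have open circles. Peaks assigned to LOC120102987 are not drawn.

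Of the 23 Col16a1 peaks of IP-1, 16 overlapped an IP-2 peak on the same strand (69.6%, Wilson interval 49.1 to 84.4). For all peaks of IP-1 the recurring share was 61.0%. In the fibrillar genes 6 of 14 IP-1 peaks recurred (42.9%, 21.4 to 67.4). The intervals of Col16a1 and the fibrillar genes overlap, but they treat peaks as independent, so the overlap is no test between genes. Seen from the longer list, 16 of 39 Col16a1 peaks recurred (41.0%) and 6 of 32 fibrillar peaks (18.8%), against 20.3% of all IP-2 peaks. Of the Col16a1 boundary peaks, 11 of 13 in IP-1 and 11 of 22 in IP-2 recurred, where 73.1% and 21.4% of all boundary peaks did. Of its 9 antisense peaks of IP-1, 5 recurred, where 834 of all 1390 antisense peaks of that list did. In the fibrillar genes 3 of 7 boundary peaks of IP-1 recurred. With overlapping peaks counted once, Col16a1 had 24 boundary positions, 11 of them in both lists, and the fibrillar genes 13, with 3 in both lists.

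Recurring Col16a1 sense peaks had 20 to 32 tags in IP-1. In IP-2 they had more tags at 10 of 11 positions, with a median IP-2 to IP-1 ratio of 1.33. Over all 1649 recurring pairs of the lists 76.0% had more tags in IP-2, and the median ratio was 1.24. At 142400550 to 142400600 the sense peak had 20 tags in IP-1 and 40 in IP-2, and at 142406800 to 142406850 it had 21 and 38. The position that went the other way was 142408800 to 142408850, with 31 and 26 tags. The 5 recurring antisense peaks had a median ratio of 0.93, with 2 higher and 3 lower in IP-2. Because tags were not scaled for depth, a ratio on its own is not a change between the IPs.

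**Figure D3:**
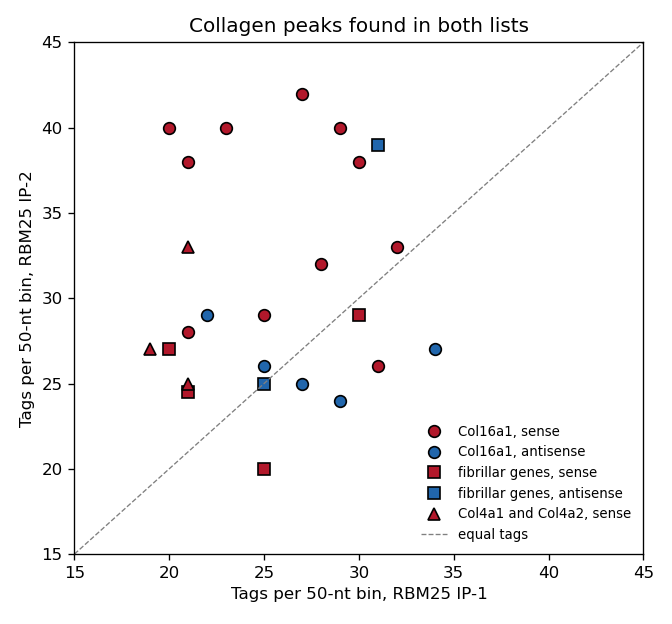
Tags per 50-nt bin in RBM25 IP-1 (horizontal) and IP-2 (vertical) for the 25 collagen peak pairs that overlap on the same strand, with a dashed line of equal tags. Col16a1 sense peaks lie above the line in 10 of 11 pairs and its antisense peaks in 2 of 5.

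Peaks of Col16a1 that stood in 1 list only covered the range of tags of the recurring ones. The 7 found only in IP-1 had a median of 28 tags (20 to 35), against 27 (20 to 34) for the 16 recurring ones. The 23 found only in IP-2 had a median of 34 tags (20 to 69), against 30.5 (24 to 42) for the recurring ones, so they held both the weakest and the strongest Col16a1 peaks of that list. The tallest Col16a1 peaks of IP-2 were among them: at 142422150 to 142422200 the sense peak had 69 tags and the antisense peak 68, and at 142422000 to 142422050 they had 63 and 65. Both sense bins spanned a boundary, with coding fractions of 0.82 and 0.54. In IP-1 the nearest peaks were a sense peak at 142421750 with 21 tags and an antisense peak at 142421800 with 25, and the antisense one recurred in IP-2 with 26. The strongest Col16a1 peak of IP-1 was antisense, at 142403500 to 142403550 with 35 tags. In that bin the sense peak had 21 tags in IP-1 and recurred in IP-2 with 28.

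Some antisense and sense peaks of Col16a1 fell in the same bins. In IP-1, 6 of 14 sense peaks (42.9%) had an opposite-strand peak in a shared bin, and in IP-2 15 of 23 did (65.2%). The shares over all sense peaks of the lists were higher, 50.5% in IP-1 and 73.5% in IP-2. In the pairs of IP-1 the opposite strand held a median of 49.7% of the tags, and in those of IP-2 50.8%. In 3 IP-2 pairs the opposite peak was assigned to LOC120102987, which the annotation places on the minus strand inside the span of Col16a1 peaks. That locus had 5 intronic peaks of 25 to 36 tags in IP-2 and none in IP-1, so reads there count as sense for one gene and would be antisense for the other.

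At 3 Col16a1 positions both strands were called in both lists. At 142400700 to 142400750 the sense peak had 30 tags in IP-1 and 38 in IP-2, and the antisense peak 27 and 25. At 142401850 to 142401900 the sense peak had 25 and 29 tags, and the antisense peak 22 and 29. At 142408800 to 142408850 the sense peak had 31 and 26 tags, and the antisense peak 34 and 27. Each of these bins spanned a boundary on the sense strand. Col5a2 had 1 such bin, the other collagen genes had none, and the lists held 402 in 263 genes.

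The type I collagen genes had few peaks, and some of these were far taller than any in Col16a1. Col1a2, which encodes the alpha-2 chain of type I collagen, had 2 peaks in IP-1, both at chromosome 4, 32576800 to 32576850. The sense peak there had 174 tags, with a coding fraction of 0.58, and the antisense peak had 132 tags. They ranked 16 and 25 among the 2696 peaks of the list. IP-2 had no peak there. Its nearest Col1a2 peaks lay 20400 nt away on the sense strand and 20250 nt on the antisense strand: a sense peak at 32597250 to 32597350 with 52 tags in coding sequence alone and antisense peaks with 38 and 24 tags.

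Col1a1, which encodes the alpha-1 chain of type I collagen, also had its tall peaks in 1 list only. In IP-1 its highest peaks lay at chromosome 10, 79885350 to 79885400: the sense peak, in coding sequence alone, had 85 tags and the antisense peak 80. The nearest Col1a1 peaks of IP-2 lay 1400 nt away on each strand. In IP-2 an antisense Col1a1 peak at 79896450 to 79896500 had 651 tags, the most of any of the 8108 peaks of that list. It had no sense partner in its bin and no counterpart in IP-1. The peaks of that gene that did recur were in the 3' UTR, with 21 tags at 79899750 to 79899800 in IP-1 and 24.5 tags over 79899700 to 79899800 in IP-2.

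**Figure D4:**
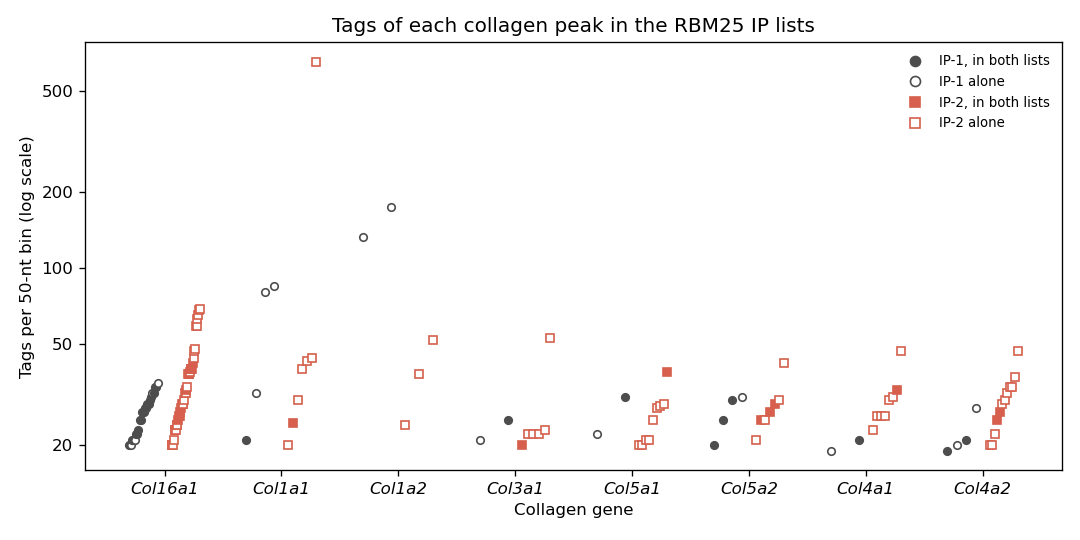
Tags per 50-nt bin (log scale) of every collagen peak, by gene, for RBM25 IP-1 (circles) and IP-2 (squares), filled where the peak recurs in the other list. Col16a1 peaks stay between 20 and 69 tags; the peaks of 80 tags and more belong to Col1a1 and Col1a2 and are all open.

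Of the 5 collagen peaks with at least 80 tags, 4 in IP-1 and 1 in IP-2, none recurred. Of all peaks of that height, a cut-off chosen after seeing the values, 14 of 47 in IP-1 (29.8%) and 33 of 150 in IP-2 (22.0%) recurred, where 61.0% and 20.3% of all peaks of these lists did. The recurring share of tall peaks was thus below that of all peaks in IP-1 and close to it in IP-2. The tallest Col16a1 peak had 35 tags in IP-1 and 69 in IP-2, and ranked 373 and 231 in these lists. The median tags were 27 in Col16a1 and 30.5 in the fibrillar genes in IP-1, and 32 and 26 in IP-2. For all peaks outside the 10 genes, intergenic ones included, the medians were 24 and 26. Collagen peaks held 1.69% of all tags of the peaks of IP-1 and 1.42% in IP-2, and without the tallest collagen peak of each list 1.49% and 1.19%.

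Col3a1, the gene of type III collagen, had sense peaks alone in IP-1, both at boundaries. The peak at chromosome 9, 47383800 to 47383850 had 25 tags in IP-1 and 20 in IP-2, with a coding fraction of 0.38. The other, at 47386000 to 47386050 with 21 tags, had no counterpart. IP-2 had 4 Col3a1 sense peaks, all at boundaries and the tallest with 53 tags at 47391100 to 47391150, and 2 antisense peaks with 23 and 22 tags. All 6 sense peaks of this gene over both lists were thus boundary peaks.

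Col5a1 and Col5a2 encode chains of type V collagen, which helps to start and size fibrils. Col5a2 had the most recurrent peaks among the fibrillar genes, 3 of 4 in IP-1. At chromosome 9, 47465900 to 47465950 its sense peak had 20 and 27 tags and its antisense peak 25 and 25. At 47466800 to 47466850 the sense peak had 30 tags in IP-1 and 29 in IP-2. These sense bins held coding fractions of 0.24 and 0.18. Another boundary peak, with 31 tags at 47468100 to 47468150, was sense in IP-1, and IP-2 had only an antisense peak there, with 42 tags.

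Col5a1 had 2 peaks in IP-1 and 9 in IP-2. Its recurring peak was antisense, at chromosome 3, 11333650 to 11333700, with 31 and 39 tags. A sense boundary peak of 22 tags at 11338150 to 11338200 in IP-1 adjoined one of 21 tags in the next bin in IP-2 without overlapping it. Allowing adjoining bins made this peak count as recurring. IP-2 also placed a sense peak of 21 tags across the 5' UTR and coding sequence at 11208800 to 11208850. Over both lists, 3 of the 4 boundary peaks of this gene were from IP-2. Over all genes IP-2 held 2648 boundary peaks and IP-1 767, so that count is not particular to Col5a1.

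Col4a1 and Col4a2, neighbours on chromosome 16 that lie on opposite strands, encode the main chains of basement membrane collagen. They had 2 and 4 peaks in IP-1, and 8 and 12 in IP-2. Each of their 3 sense peaks of IP-1 was a boundary peak and recurred. The Col4a1 peak at 78272800 to 78272850 had 21 tags and overlapped an IP-2 peak of 33 tags. The Col4a2 peaks at 78057900 and 78053750 had 21 and 19 tags in IP-1, and 25 and 27 in IP-2. None of their 3 antisense peaks of IP-1 recurred. In IP-2, 7 of 10 sense peaks of this pair were boundary peaks, and Col4a2 had a peak of 47 tags across the 5' UTR and intron at 78183200 to 78183250.

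Col6a1 and Col6a2, which encode the alpha-1 and alpha-2 chains of type VI collagen, had no peak in either list. The RefSeq name table holds 44 collagen genes, and 34 of them had no peak in either list, these 2 included. Of the 10 with a peak, 8 had one in both lists, and these 8 all held a recurring peak except Col1a2. Over all genes with a peak in either list, 43.2% had one in both and 34.1% held a recurring peak; the collagen genes were chosen with these peaks known, so their count is not read against those shares. Col11a1, a fibrillar gene outside the 10, and Col4a5 had peaks in IP-2 alone.

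Taking the collagens as a group, 17 of 43 peaks were antisense in IP-1 (39.5%, 26.4 to 54.4) and 44 of 91 in IP-2 (48.4%, 38.4 to 58.5). All peaks of the lists were antisense in 51.6% and 49.3%. Boundary peaks were 23 of 26 collagen sense peaks in IP-1 (88.5%, 71.0 to 96.0) and 38 of 47 in IP-2 (80.9%, 67.5 to 89.6). Without Col16a1 they were 10 of 12 (83.3%, 55.2 to 95.3) and 16 of 24 (66.7%, 46.7 to 82.0). The share without Col16a1 in IP-2 was thus lower than with it, and all sense peaks of that list had 68.1%. Within the fibrillar genes boundary peaks were 7 of 9 sense peaks in IP-1 (77.8%) and 9 of 14 in IP-2 (64.3%). Their wide intervals, 45.3 to 93.7 and 38.8 to 83.7, overlap those of Col16a1. Intervals treat peaks as independent, so this overlap is no test between genes.

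Genes that act on collagen were looked up by role, from a list of 59. In the group for folding and modification in the endoplasmic reticulum 8 of 22 had a peak in IP-1 and 11 in IP-2, and 6 held a recurring peak. Over all genes with a peak in either list 34.1% held one. The list was written with peaks known, so its counts are not read against that share. Serpinh1, the collagen chaperone gene, had 5 peaks in each list. Only 1 of these in IP-1 and 2 in IP-2 were sense, and none was a boundary peak. P4ha3, a prolyl 4-hydroxylase subunit gene, had 39 and 28 tags at its recurring antisense peak. Hsp90b1, the gene of a general chaperone of that compartment, had 4 boundary peaks in IP-1 and 7 in IP-2. Pdia3, Hspa5 and Canx, which serve many secreted proteins, held the other recurring peaks. Serpinh1 and P4ha3 were thus the members with a recurring peak that act chiefly on collagen.

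Among 6 genes for export, Mia3, which loads procollagen for export, had 5 peaks in IP-1, of which 4 recurred, and 12 in IP-2. Of 10 genes for propeptide cleavage and crosslinking, Bmp1, a procollagen proteinase gene, and Loxl1, a lysyl oxidase gene, held a recurring peak. Bmp1 had 21 tags in IP-1 and 28.5 in IP-2 at that peak, and Loxl1 had 27 in each. No gene of the matrix partner, receptor or degradation groups held a recurring peak. Only 3 matrix partner genes, 1 receptor gene and 1 degradation gene had any peak, too few to set these groups apart. Fn1, the fibronectin gene, had 5 peaks in IP-1 and 23 in IP-2 without an overlap, and the integrin gene Itgb1 had 3 and 14. Sparc, which encodes a collagen-binding matrix protein, had 6 peaks in IP-2, of up to 108 tags, and none in IP-1. Over the whole list of 59, 15 genes had a peak in IP-1 and 21 in IP-2, and those 15 were among the 21. Of the 21 with a peak in either list, 15 thus had one in both and 9 held a recurring peak, where the shares over all genes with a peak were 43.2% and 34.1%. The list was written with peaks of these data known, so nothing is read from that difference.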

How the data were processed

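RBM25-bound RNA of H9C2 cells was summarised by the submitters as 1 peak list per IP sample, by the names of the lists. Per the submitters' processing notes, HISAT2 and the build mRatBN7.2 were used; which peak caller was run, with which filters and with or without the inputs, is not given in the sources used here. Per the file headers and values, the deposited tags are a signal per 50-nt bin, not scaled for depth, and the deposited p-value and peak length come from the caller. Depth per sample is unknown.

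Peaks were assigned by deposited gene name, called sense, antisense or boundary from the deposited annotation, and called recurring when they overlapped by at least 1 bin on the same strand. Shares have 95% Wilson intervals. No test was run, because the members and lists were chosen with earlier results of these data known. The rule for named genes took all 10 members, collagen genes with a peak, pathway genes with a recurring peak and the 5 other genes with the most boundary peaks, of which 4 are reported here; Fn1, Itgb1, Sparc and the other pathway genes without a recurring peak were named after their values were seen. Symbols came from a RefSeq table (assembly GRCr8, names alone), which held 58 of the 59 pathway genes. Sequence was not analysed here. Overlap matching was tested on simulated data. Alternatives covered the p-value, peak length, overlap, strand, the boundary definition, each list and, added after seeing the data, Col16a1. Software was scipy 1.17.1, pandas 2.3.3, matplotlib 3.10.9 and numpy 2.4.6 under Python 3.11.15.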

Additional observations from a re-analysis of the deposited data

How the results depend on the processing

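Of 42 alternative values, 28 stayed within the interval, the list spread or the factor of 1.5 set for them. With the better part of each list by p-value, collagen peaks numbered 82 in place of 134, recurrence was 42.3% in place of 58.1%, and fibrillar boundary peaks were 7 in place of 16, while those of Col16a1 were 24 in place of 35. Recurrence was 27.5% when counted over IP-2. Boundary peaks were 72.6% of collagen sense peaks in place of 83.6% when both fractions had to reach 0.1, and 72.2% without Col16a1, where 72 peaks remained. Recurring peaks alone were antisense in 28.0%, in place of 45.5%. These were 7 of 25 in each list, from the same pairs. Of all recurring peaks, 834 of 1645 in IP-1 and 833 of 1645 in IP-2 were antisense. The highest peak per gene had a median of 44.5 tags, in place of 28.25 over peaks. With 1 list left out, peaks ranged over 43 to 91, Col16a1 boundary peaks over 13 to 22, fibrillar ones over 7 to 9, the boundary share over 80.9% to 88.5%, the antisense share over 39.5% to 48.4% and median tags over 27 to 29. Halving the lists, leaving 1 out or leaving out Col16a1 removes peaks by construction. Requiring both fractions to reach 0.1 can only remove boundary peaks. Recurrence over IP-2 sets 25 recurring peaks against 91 peaks in place of 43. Taking the highest peak of each gene keeps its largest tag value by design. For the other changes the cause was not tested. Recurrence needs both lists, so it has no value with 1 left out. No paired analysis was possible because only the IP lists were analysed and no result comes from a test.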

Other observations

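Col11a1, the gene of a type XI collagen chain that forms fibrils with types II and V, had 8 peaks in IP-2 and none in IP-1. Its 5 sense peaks all spanned a boundary, and its strongest peak had 29 tags. Col4a5, a further basement membrane collagen gene, had 1 boundary peak of 21 tags in IP-2.

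Several collagen peaks lay near the lowest tags of their list. In IP-1, 13 of 43 collagen peaks had at most 2 tags more than the lowest peak, 5 of them in Col16a1, and in IP-2 17 of 91 did, 4 of them in Col16a1. Of the 18 collagen peaks of IP-1 without an overlap in IP-2, 8 had a IP-2 peak of the same gene and strand within 500 nt, and of the 66 of IP-2 without one, 11 did.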
